A study of Mus musculus with 48 samples.

Results

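The Kruppel-like factors Klf2, Klf4, Klf6, Klf9, Klf10 and Klf15 and the early growth response factors Egr1, Egr2 and Egr3 were followed across mouse hearts with a genetic cardiomyopathy and under a bromodomain inhibitor. These 9 genes were taken by exact gene symbol from the 31920 genes of the ventricle tables and the 31741 genes of the cell fraction table, and all 9 were found in both. The mice were of the FVB strain and were wild type or PLNR9C, the latter a phospholamban mutation that causes dilated cardiomyopathy, phospholamban being the inhibitor of the sarcoplasmic reticulum calcium pump. They received JQ1, an inhibitor of BET bromodomain proteins, at 50 mg/kg, or vehicle. Whole left ventricle was taken at 8 weeks of age, a stage that the labels call preDCM, and at 20 weeks, called DCM. Pools of cardiomyocytes and pools of cardiac non-myocytes were taken at 16 weeks, and there the stage field reads DCM in both genotypes. Each of these 4 sample types held 4 groups of 3 libraries, namely Wild type-vehicle, Wild type-JQ1, PLNR9C-vehicle and PLNR9C-JQ1, so that 16 groups and 48 libraries were compared. The sources used here do not state which promoter drives PLNR9C, how long treatment lasted or how many animals made a pool. Each group's 3 libraries were separate biological replicates according to the design text. For the fractions, where cells were pooled, p-values measure the spread between pools.

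Kruppel-like factors bind CACCC-type and GC-rich DNA through zinc fingers, and their members differ in where and when they are made. In the heart Klf2 and Klf4 are best known from the endothelium, where flow induces them, while Klf15 and Klf9 are induced by glucocorticoids and Klf15 restrains cardiomyocyte growth and supports the use of fatty acids and branched-chain amino acids. Egr1, Egr2 and Egr3 are immediate early genes: a stimulus such as a growth factor or stretch turns them on within minutes through serum response factor (SRF), they bind a GC-rich element of the form GCGGGGGCG, and the Nab proteins restrain them.

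The windows before the start sites of 4 of the genes are shown because they carry matches to elements that these factors themselves, or their known upstream factors, bind. Each is the 250 bases before a RefSeq start on GRCm38.p6, written 5′ to 3′ along the gene's strand, and capitals mark matches to GCGGGGGCG, to the CArG box that SRF binds, or to the site of MEF2 factors. Klf2 lies on the plus strand and its window is chr8:72318812-72319061. Klf4 lies on the minus strand with the window chr4:55532476-55532725. Klf15 is on the plus strand with chr6:90462326-90462575, whose RefSeq start lies 50 bases from the deposited start. Egr2 is on the plus strand with chr10:67537619-67537868, the window of that one of its 5 listed starts that equals the deposited start.
Klf2: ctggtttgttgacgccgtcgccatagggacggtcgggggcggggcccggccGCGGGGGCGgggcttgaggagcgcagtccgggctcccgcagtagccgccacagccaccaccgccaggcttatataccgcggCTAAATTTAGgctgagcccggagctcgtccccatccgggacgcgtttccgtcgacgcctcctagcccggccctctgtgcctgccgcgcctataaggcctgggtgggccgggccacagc
Klf4: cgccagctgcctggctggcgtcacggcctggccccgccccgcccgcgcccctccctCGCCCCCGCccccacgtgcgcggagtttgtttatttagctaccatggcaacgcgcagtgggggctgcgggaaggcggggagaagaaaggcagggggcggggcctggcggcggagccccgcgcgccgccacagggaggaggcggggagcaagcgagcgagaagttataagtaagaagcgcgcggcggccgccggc
Klf15: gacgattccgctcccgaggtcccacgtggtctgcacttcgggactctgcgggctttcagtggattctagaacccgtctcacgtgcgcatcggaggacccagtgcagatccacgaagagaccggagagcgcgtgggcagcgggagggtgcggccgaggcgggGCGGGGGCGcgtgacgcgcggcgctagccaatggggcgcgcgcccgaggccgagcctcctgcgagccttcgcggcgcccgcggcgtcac
Egr2: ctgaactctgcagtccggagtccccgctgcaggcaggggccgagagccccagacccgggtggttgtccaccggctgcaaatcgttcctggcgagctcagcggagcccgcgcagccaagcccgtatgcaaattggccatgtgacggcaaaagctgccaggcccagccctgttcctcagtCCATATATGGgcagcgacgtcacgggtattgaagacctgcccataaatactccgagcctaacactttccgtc
GCGGGGGCG, searched on both strands, was found in the windows of Klf2, Klf4 and Klf15, at bases -199 to -191, -194 to -186 and -89 to -81 before the start, against 2.58% of all 32807 windows of this length. The Egr2 window held a CArG box at -72 to -63, which 1.47% of windows hold, and the Klf2 window held a MEF2 site at -118 to -109, which 2.92% hold. The short element CACCC occurred in Klf2, Klf9, Klf15 and Egr2, as it did in 52.0% of all windows, and GGGCGG, which can overlap GCGGGGGCG, in Klf2, Klf4, Klf6 and Klf15, as in 32.7%. None of GCGGGGGCG, the CArG box or the MEF2 site was found in the windows of Klf6 at chr13:5861239-5861488 and Klf9 at chr19:23140976-23141225. A match is a description of letters and not evidence of binding, and the windows of the other 3 genes are not used here.

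Read counts scaled to library size (CPM, after TMM scaling) are given for each library, and differences are log2 fold changes from edgeR's quasi-likelihood test with the Benjamini-Hochberg adjustment over all genes tested, with a gene called at an adjusted p under 0.05. Libraries held 16984138 to 27086694 reads in the 8-week ventricle, 18415351 to 26730918 in the 20-week ventricle, 10249780 to 13146653 in the cardiomyocyte pools and 10041094 to 11815003 in those of non-myocytes. All 9 genes passed the filter on low counts in each sample type. Hexim1, whose RNA is widely used as a sign of BET inhibition, rose with JQ1 in all 8 comparisons of drug with vehicle, by 1.34 to 2.58 on the log2 scale in edgeR's test, and its JQ1 and vehicle libraries did not overlap in any of them. The fractions matched their labels in part: all 9 cardiomyocyte markers were higher in wild type vehicle cardiomyocytes, by a median of 5.15, and all 9 fibroblast and all 9 macrophage markers were higher in non-myocytes. The cardiomyocyte fraction still held endothelial RNA, with 10 endothelial markers summing to 489 to 1285 CPM over its 12 libraries. In non-myocytes, scaled separately, they summed to 3370 to 6656 CPM.

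**Figure D1:**
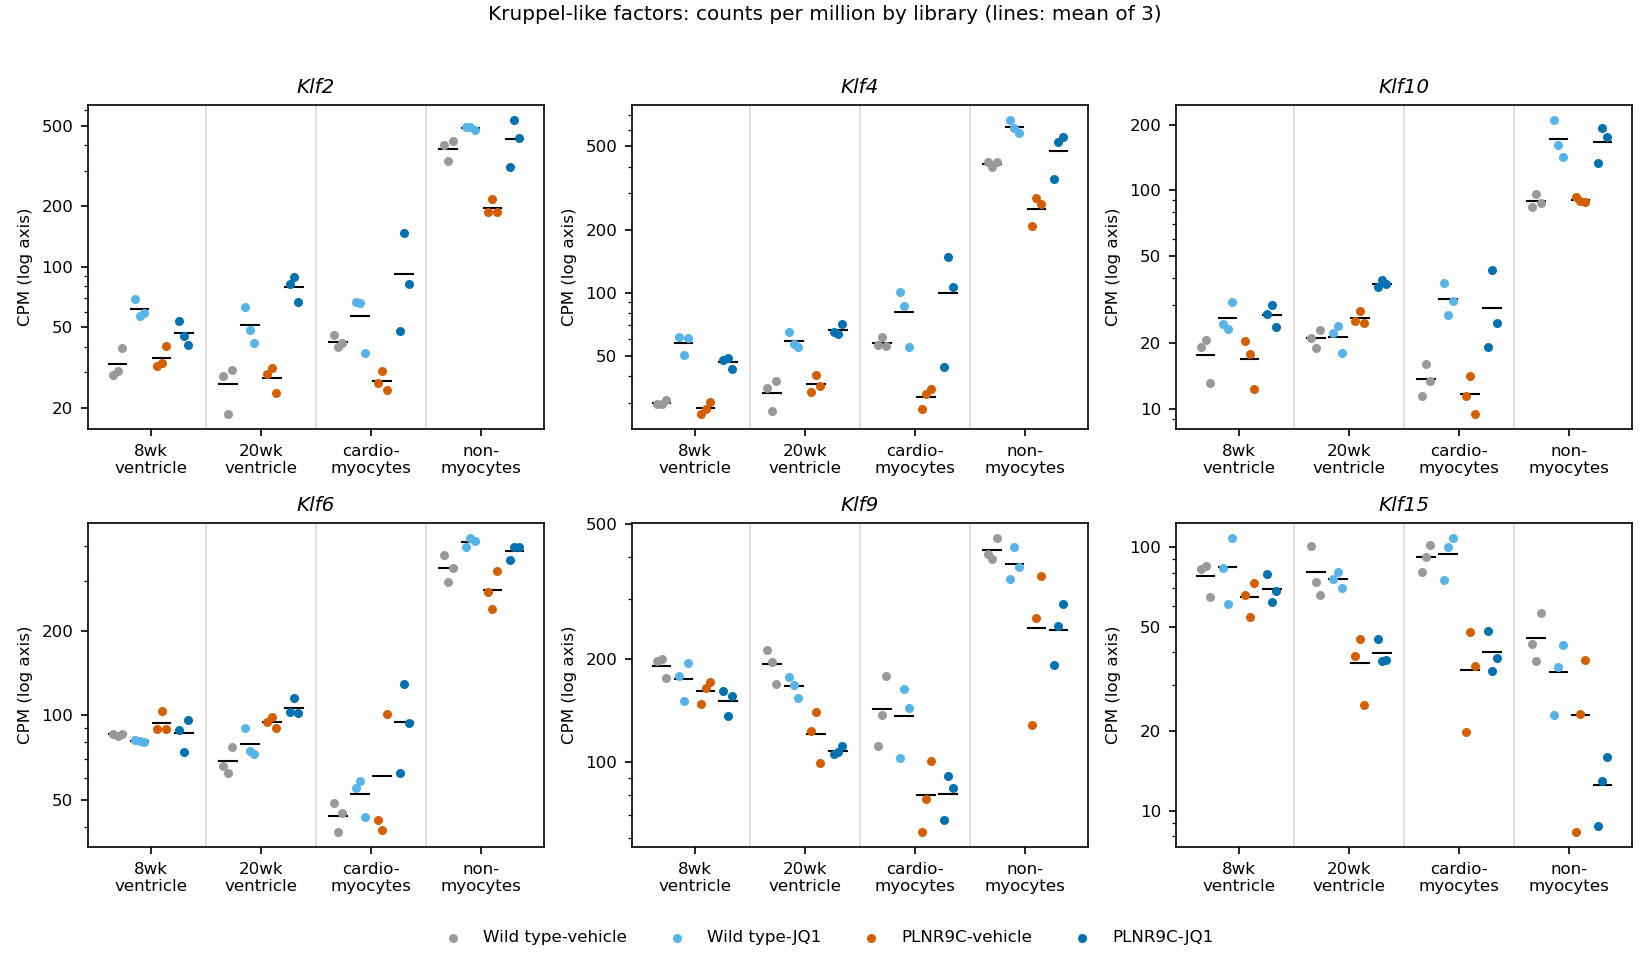
CPM of the 6 Kruppel-like factors in each of the 48 libraries (points, log axis), by sample type along the x axis and by genotype and treatment in colour, with lines at group means of 3. By these CPM Klf2 and Klf4 stand highest in non-myocytes, and Klf15 is lowest there. CPM were scaled separately in each of the 4 sample types, so heights do not give fold changes between them.

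In isolated cells of wild type vehicle mice, Klf15 was the only one of the 9 with a higher level in cardiomyocytes than in non-myocytes, and the other 8 were higher in non-myocytes. Klf15 measured 80.8, 91.6 and 102.0 CPM in the 3 cardiomyocyte libraries and 42.8, 37.0 and 56.2 CPM in the 3 non-myocyte libraries. CPM were scaled separately in each fraction, so their ratios differ from the fold changes of the joint fit. Overlap between fractions is not read from them. In the joint fit the difference was 1.85 ± 0.37 (SE) on the log2 scale in favour of cardiomyocytes (edgeR adjusted p = 0.00012, n = 3 and 3). Klf2 measured 45.9, 39.8 and 41.8 CPM in cardiomyocytes and 401, 335 and 419 CPM in non-myocytes. It was 5.07-fold lower in cardiomyocytes in the joint fit (log2 -2.34 ± 0.28, edgeR adjusted p = 1.7e-07). Klf4 was 4.0-fold lower in cardiomyocytes, Klf6 4.28-fold, Klf10 3.65-fold and Klf9 1.64-fold. Of the Egr genes, Egr2 differed most, at 2.57, 3.61 and 4.64 CPM in cardiomyocytes against 41.9, 45.4 and 60.1 CPM in non-myocytes (log2 -2.93 ± 0.36, edgeR adjusted p = 2.7e-07), while Egr3 was lower by a log2 difference of -2.20 ± 0.56 and Egr1 by -1.72 ± 0.24. Between fractions most genes differed: 37.3% of the 15823 genes tested were higher and 42.2% lower in cardiomyocytes, so 9 called of 9 is read against that. The median of the 9 was -2.0, beside -0.13 for all genes. The call for Klf9 was lost without either of 2 cardiomyocyte libraries (1 and 2) or without non-myocyte library 3, with log2 differences of -0.56, -0.69 and -0.65. Egr1 had a mean of 302 CPM in these cardiomyocyte pools and 1772 CPM in these non-myocyte pools. In Wild type-vehicle ventricle its mean was 15.8 CPM at 8 weeks and 11.4 CPM at 20 weeks. Whether cell isolation changed these levels was not tested, so the differences describe isolated cells.

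Compared per gene length, as the authors' deposited RPKM over all 12 libraries of a sample type, the order of the genes differed between ventricle and fractions. In the 8-week ventricle Klf9 led with a mean of 52.0 RPKM (range 42.9 to 61.7), followed by Klf15 at 31.3 (24.9 to 43.3), Klf2 at 24.2, Klf6 at 20.6, Klf4 at 13.2, Egr1 at 8.99 and Klf10 at 7.18, with Egr3 at 0.824 and Egr2 at 0.389. Each neighbour's range met the next one's except that Klf10 (4.29 to 10.1) stayed above Egr3 (0.386 to 1.71). The 20-week order was close to this one, with Klf2 next after Klf9 at a mean of 25.7 RPKM and then Klf15 at 24, whose ranges of 9.67 to 53.4 and 11.9 to 40.0 overlapped. The mean of Klf2 there ran from 13.5 RPKM in Wild type-vehicle to 47.0 in PLNR9C-JQ1. In Wild type-vehicle alone Klf2 lay below Klf15 at 32.1 and Klf6 at 15.3. In non-myocytes Egr1 led with a mean of 485 RPKM (276 to 759), above the range of the next gene, Klf2, at 204 (106 to 269), and Klf15 came last at 12.3 (3.73 to 25.5). Egr1 also led in cardiomyocytes, at 102 RPKM (48.1 to 209), with Klf9 next at 33.2 (20.6 to 52.2), whose range met its own. These levels come from tables that were normalized separately, and ventricle and fraction libraries also differ in age and in whether cells were isolated, which cannot be told apart.

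At 8 weeks, the preDCM stage, 8 of the 9 genes had no call for genotype. Egr2 was called as higher: its libraries held 0.235, 0.588 and 0.746 CPM (4 to 15 reads) in Wild type-vehicle and 1.38, 1.30 and 1.49 CPM (27 to 36 reads) in PLNR9C-vehicle, with no overlap. The rise was 1.36 ± 0.45 on the log2 scale (edgeR adjusted p = 0.047). The call was lost in 5 of the 6 fits that left out 1 of these libraries, where the log2 difference ranged from 1.06 to 1.44. Klf9 was lower in each PLNR9C library than in each wild type library (148, 165 and 172 against 198, 201 and 177 CPM), a log2 difference of -0.25 ± 0.09 that did not pass (edgeR adjusted p = 0.082). Among all 15501 genes tested, 7.86% rose and 6.5% fell in this comparison, so 1 rise in 9 is near that background.

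At 20 weeks the picture was wider: Egr2, Egr3, Klf6 and Klf10 rose in PLNR9C ventricle and Klf15 and Klf9 fell, 6 of the 9 genes in all. In the same comparison 23.3% of the 15971 genes tested rose and 21.4% fell, and the median of the 9 was 0.30, beside 0.01 for all genes. In bulk ventricle a change in the share of a cell type and a change of RNA per cell cannot be told apart. Klf15 held 101, 73.6 and 66.1 CPM in Wild type-vehicle and 38.6, 45.0 and 25.1 CPM in PLNR9C-vehicle. All mutant libraries lay below all wild type libraries, and the fall was -1.15 ± 0.21 on the log2 scale (edgeR adjusted p = 0.0013). Klf9, another Kruppel-like factor that answers to glucocorticoids, held 214, 197 and 169 CPM against 124, 140 and 99.7 CPM, again without overlap (log2 -0.67 ± 0.11, edgeR adjusted p = 7.8e-05). The 9 cardiomyocyte markers moved the same way, from a sum of 81425 to 91322 CPM in Wild type-vehicle to 36849 to 44384 CPM in PLNR9C-vehicle, and their part in the fall of Klf15 and Klf9 was not tested. None of the 9 markers was at 0 in any of these libraries.

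Egr2 rose most, from 0.0866, 0.267 and 0.558 CPM (2 to 11 reads) in Wild type-vehicle to 3.35, 1.97 and 2.77 CPM (43 to 100 reads) in PLNR9C-vehicle at 20 weeks. The libraries were far apart, with a log2 difference of 3.19 ± 0.49 (edgeR adjusted p = 5.6e-05). Egr3, which binds the same element as Egr1 and Egr2, held 1.56, 2.49 and 3.35 CPM against 7.71, 6.11 and 8.26 CPM and rose by 1.59 ± 0.24 (edgeR adjusted p = 4.2e-05). Egr1 was higher in all 3 mutant libraries (16.0, 22.9 and 17.4 against 8.14, 12.4 and 13.8 CPM), but the difference of 0.71 ± 0.38 did not pass (edgeR adjusted p = 0.16). Klf6, a widely expressed factor linked to injury and fibrosis, rose from 66.1, 62.5 and 77.3 CPM to 95.0, 98.4 and 90.4 CPM (log2 0.46 ± 0.09, edgeR adjusted p = 5e-04). Klf10, which TGF-beta induces, rose by 0.30 ± 0.11 (edgeR adjusted p = 0.026), a call lost without PLNR9C-vehicle library 2 or Wild type-vehicle library 2 (log2 0.24 in each case). Fibroblast and macrophage markers were higher in the same mutant libraries, the 9 fibroblast markers summing to 4584 to 5736 against 1110 to 1336 CPM and the 9 macrophage markers to 660 to 911 against 221 to 241 CPM. Their part in the rises of Egr2, Egr3, Klf6 and Klf10 was not tested.

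The size of the genotype effect at 20 weeks minus that at 8 weeks was tested directly over the 24 ventricle libraries, and none of the 9 passed in edgeR's test, while 15.5% of 16220 genes did. At an unadjusted p under 0.05 there were 4 of the 9, beside 4434 of the 16220 genes, namely Klf9 (-0.42 ± 0.15, edgeR adjusted p = 0.067), Klf15 (-0.87 ± 0.31, 0.072), Klf6 (0.33 ± 0.13, 0.076) and Egr2 (1.84 ± 0.76, 0.11). DESeq2 called 1, Klf15. Without PLNR9C-vehicle 20-week library 2 edgeR called Klf9 and Klf15, without Wild type-vehicle 20-week library 3 it called Klf6, Klf9 and Egr2, and without PLNR9C-vehicle 8-week library 2 it called Klf6.

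**Figure D2:**
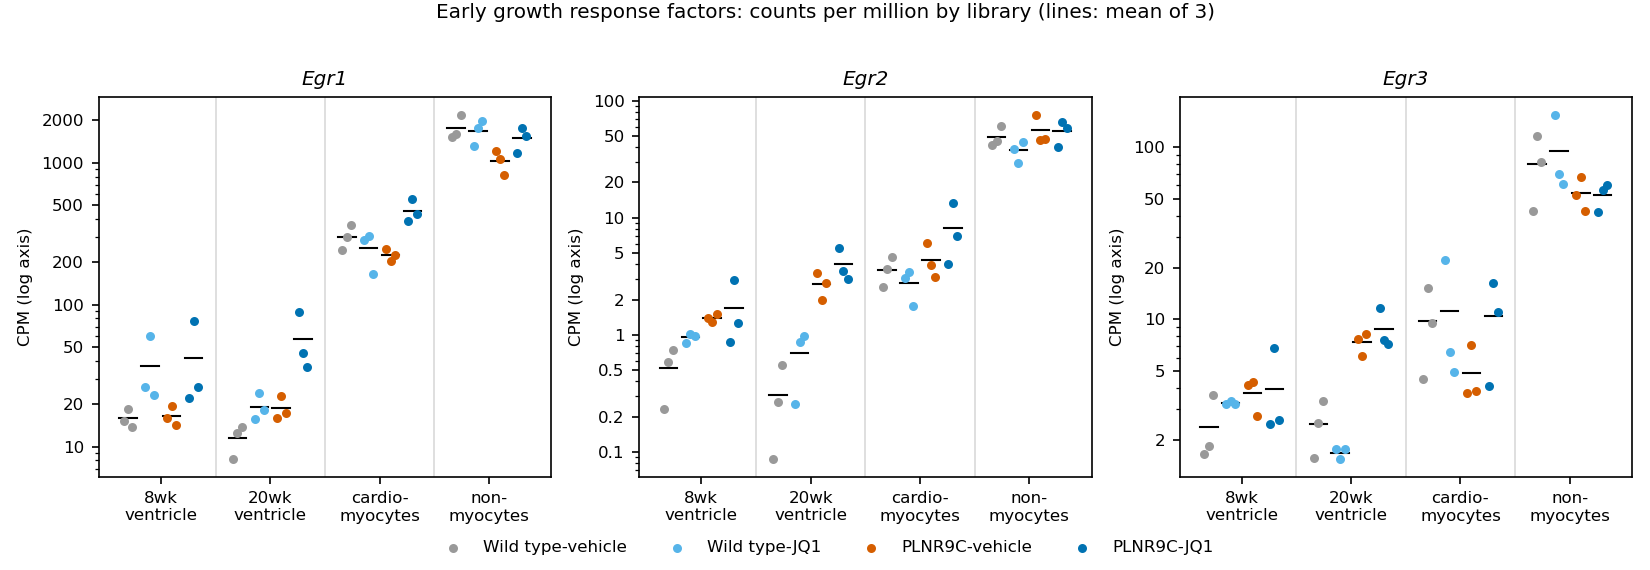
CPM of Egr1, Egr2 and Egr3 in each of the 48 libraries (points, log axis) by sample type, genotype and treatment, with lines at group means of 3. Egr2 in the 20-week ventricle separates the genotypes, and Egr1 has single high libraries in JQ1-treated ventricle, such as 77.2 and 60.6 CPM at 8 weeks.

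In cardiomyocytes at 16 weeks Klf15 and Klf9 were lower in the mutant, and no member rose. Klf15 held 80.8, 91.6 and 102.0 CPM in Wild type-vehicle and 19.9, 47.7 and 35.3 CPM in PLNR9C-vehicle pools, without overlap, and fell by 1.41 on the log2 scale (SE 0.26, edgeR adjusted p = 0.0025). Klf9 held 112, 137 and 179 CPM against 62.3, 77.8 and 101 CPM and fell by 0.83 (SE 0.22, edgeR adjusted p = 0.017), a call lost without any of 3 pools, namely wild type 3 and mutant 1 and 2, with log2 differences of -0.65, -0.67 and -0.80. In this comparison 11.8% of the 14142 genes tested fell and 14.3% rose. The cardiomyocyte marker sum was also lower in mutant pools, at 56548 to 60727 against 87003 to 94514 CPM, and the fibroblast marker sum was higher, at 1083 to 1669 against 204 to 299.6 CPM; their part was not tested. Klf2 and Klf4 were lower in every mutant pool (26.4, 30.3 and 24.3 against 45.9, 39.8 and 41.8 CPM for Klf2), but their differences of -0.65 ± 0.34 and -0.86 ± 0.35 did not pass in edgeR (adjusted p = 0.18 and 0.09), while DESeq2 called Klf4 (0.037). The endothelial sum was lower in these mutant pools as well, at 489 to 541 against 675 to 840 CPM, and as a share of it Klf2 overlapped between genotypes, at 4.96% to 5.61% and 4.74% to 6.80%.

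In non-myocytes Klf2, Klf4 and Egr1 were lower in the mutant. Klf2 held 401, 335 and 419 CPM in Wild type-vehicle and 186, 216 and 186 CPM in PLNR9C-vehicle pools, far outside the spread within either group (log2 -0.97 ± 0.16, edgeR adjusted p = 0.00088). Klf4 held 418, 399 and 422 CPM against 208, 282 and 264 CPM (log2 -0.72 ± 0.16, edgeR adjusted p = 0.0063). Egr1 held 1526, 1606 and 2183 CPM against 1214, 1056 and 823 CPM (log2 -0.78 ± 0.21, edgeR adjusted p = 0.018), and its call was lost without wild type pool 3 (-0.59) or mutant pool 3 (-0.63). Falls covered 8.32% and rises 10.3% of the 15347 genes tested. Endothelial markers fell alongside: 8 of the 10 were called lower, and their sum dropped from a mean of 6029 ± 615 to 3686 ± 509 CPM (SD, n = 3 pools each). The smooth muscle and pericyte marker sum was lower too, at 1311 to 1606 against 2029 to 2553 CPM, with 6 of 8 markers called. Fibroblast markers summed to 19788 to 24995 against 8007 to 10342 CPM and macrophage markers to 4217 to 5084 against 1578 to 1880 CPM, both higher in the mutant without overlap. The part of these sums in the falls of Klf2, Klf4 and Egr1 was not tested. Set against the endothelial sum, Klf2 made up 5.58% to 7.39% in wild type and 5.05% to 5.53% in mutant pools, and Klf4 6.35% to 7.71% and 6.09% to 7.84%. Per endothelial marker RNA Klf4 thus overlapped between genotypes and Klf2 lay just lower.

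Klf9 was also lower in every mutant non-myocyte pool than in every wild type pool, and Klf15 in most, but mutant pools were widely spread. Klf9 held 129, 264 and 351 CPM and Klf15 8.28, 23.4 and 37.4 CPM in PLNR9C-vehicle, pool 1 being the lowest for both, against 393 to 454 and 37.0 to 56.2 CPM in wild type. The differences of -0.76 ± 0.29 for Klf9 and -0.98 ± 0.45 for Klf15 did not pass (edgeR adjusted p = 0.095 and 0.16). Without mutant pool 3 both were called, at -1.08 and -1.51, as was Klf6 at -0.37, and DESeq2 called Klf9 with all pools (-0.75, 0.032). With the replicate number as a block edgeR called both, Klf9 at -0.84 (adjusted p = 0.024) and Klf15 at -1.13 (0.023). Tested directly in edgeR, no genotype effect of the 9 genes differed between cardiomyocytes and non-myocytes at an adjusted p under 0.05. Of all genes 8.33% did. At an unadjusted p under 0.05 there were 0 of the 9, beside 3508 of 15823 genes. DESeq2 also called 0.

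**Figure D3:**
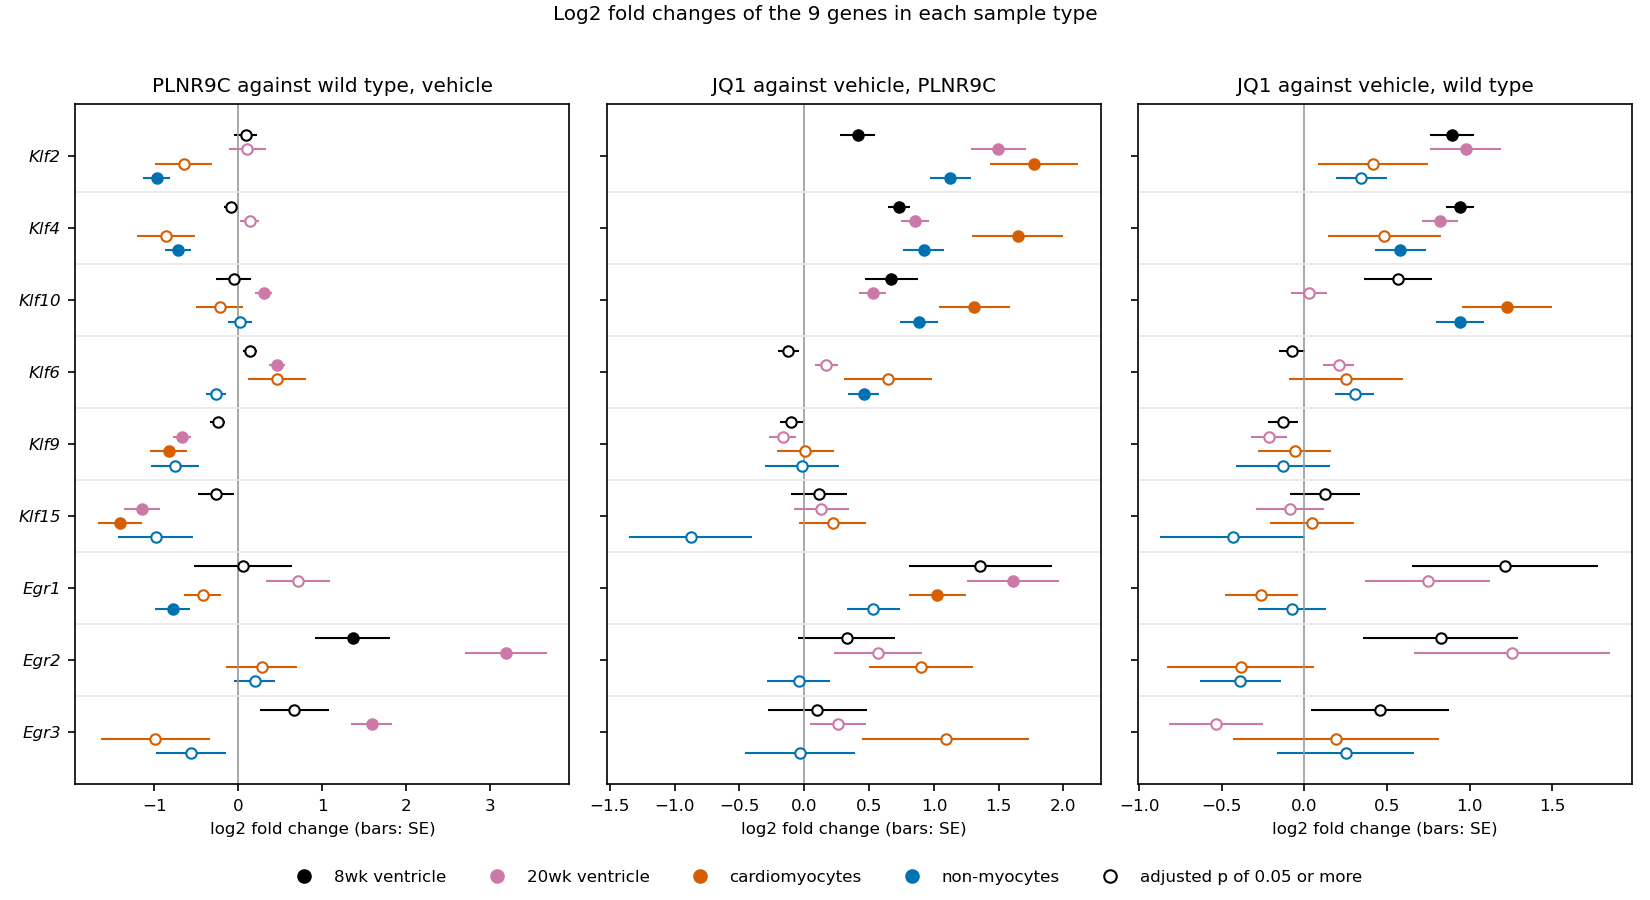
Log2 fold changes with standard errors (bars) of the 9 genes in 3 comparisons, by sample type in colour; filled points had an edgeR adjusted p under 0.05. Filled points of the JQ1 comparisons all lie to the right of 0, and those of Klf9 and Klf15 in the genotype comparison lie to the left.

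JQ1 raised Klf2 and Klf4 in ventricle of both genotypes and at both ages. At 20 weeks Klf2 held 29.3, 31.3 and 23.6 CPM in PLNR9C-vehicle and 82.6, 89.0 and 66.5 CPM in PLNR9C-JQ1, a 2.83-fold rise (log2 1.5 ± 0.21, edgeR adjusted p = 0.00052) with no overlap. In wild type it went from 28.8, 18.5 and 30.9 to 63.5, 48.3 and 41.9 CPM (log2 0.98 ± 0.22, edgeR adjusted p = 0.0075). Klf4 rose to a like extent in both genotypes at that age, from 33.6, 40.7 and 36.1 to 64.8, 64 and 71.0 CPM in PLNR9C (0.86 ± 0.11, edgeR adjusted p = 2.2e-05) and from 35.1, 27.3 and 38.1 to 65.1, 57.3 and 55.2 CPM in wild type (0.82 ± 0.11, 4.2e-05). At 8 weeks Klf4 rose by 0.73 ± 0.08 in PLNR9C (edgeR adjusted p = 2.7e-06) and by 0.94 ± 0.08 in wild type (1.6e-07), and Klf2 by 0.41 ± 0.14 (0.033) and 0.89 ± 0.14 (0.00032). The 8-week Klf2 call in PLNR9C did not hold without the filter on low counts, nor without any of 4 single libraries, where the log2 difference was 0.30 to 0.44.

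The share of all genes that rose with JQ1 was 15.5% in PLNR9C and 14.3% in wild type at 8 weeks, where 3 and 2 of the 9 genes rose, and 15.9% and 12.3% at 20 weeks, where 4 and 2 rose. No member fell, beside 17.7% and 15.4% of all genes at 8 weeks and 16.1% and 14.9% at 20 weeks. At 20 weeks the median of the 9 was 0.53 in PLNR9C and 0.21 in wild type, beside 0.00 and -0.01 for all genes. In PLNR9C ventricle the endothelial marker sum was not higher with JQ1. Their sum was 1186 ± 19 CPM in PLNR9C-JQ1 and 1258 ± 29 in PLNR9C-vehicle at 8 weeks, and 1290 ± 49 and 1296 ± 118 CPM at 20 weeks (SD, n = 3 each). The macrophage sum was higher with JQ1 in the 20-week PLNR9C ventricle, at 1010 to 1082 against 660 to 911 CPM, and so was the cardiomyocyte sum, at 51778 to 57967 against 36849 to 44384 CPM; their part in the rises of Klf2, Klf4, Klf10 and Egr1 there was not tested. Klf2 came to 5.39% to 6.70% of the endothelial sum in PLNR9C-JQ1 against 1.65% to 2.53% in PLNR9C-vehicle at 20 weeks, and Klf4 to 4.82% to 5.75% against 2.52% to 3.29%, with no overlap. In wild type at that age Klf2 came to 2.86% to 4.12% with JQ1 and 1.11% to 2.08% with vehicle.

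**Figure D4:**
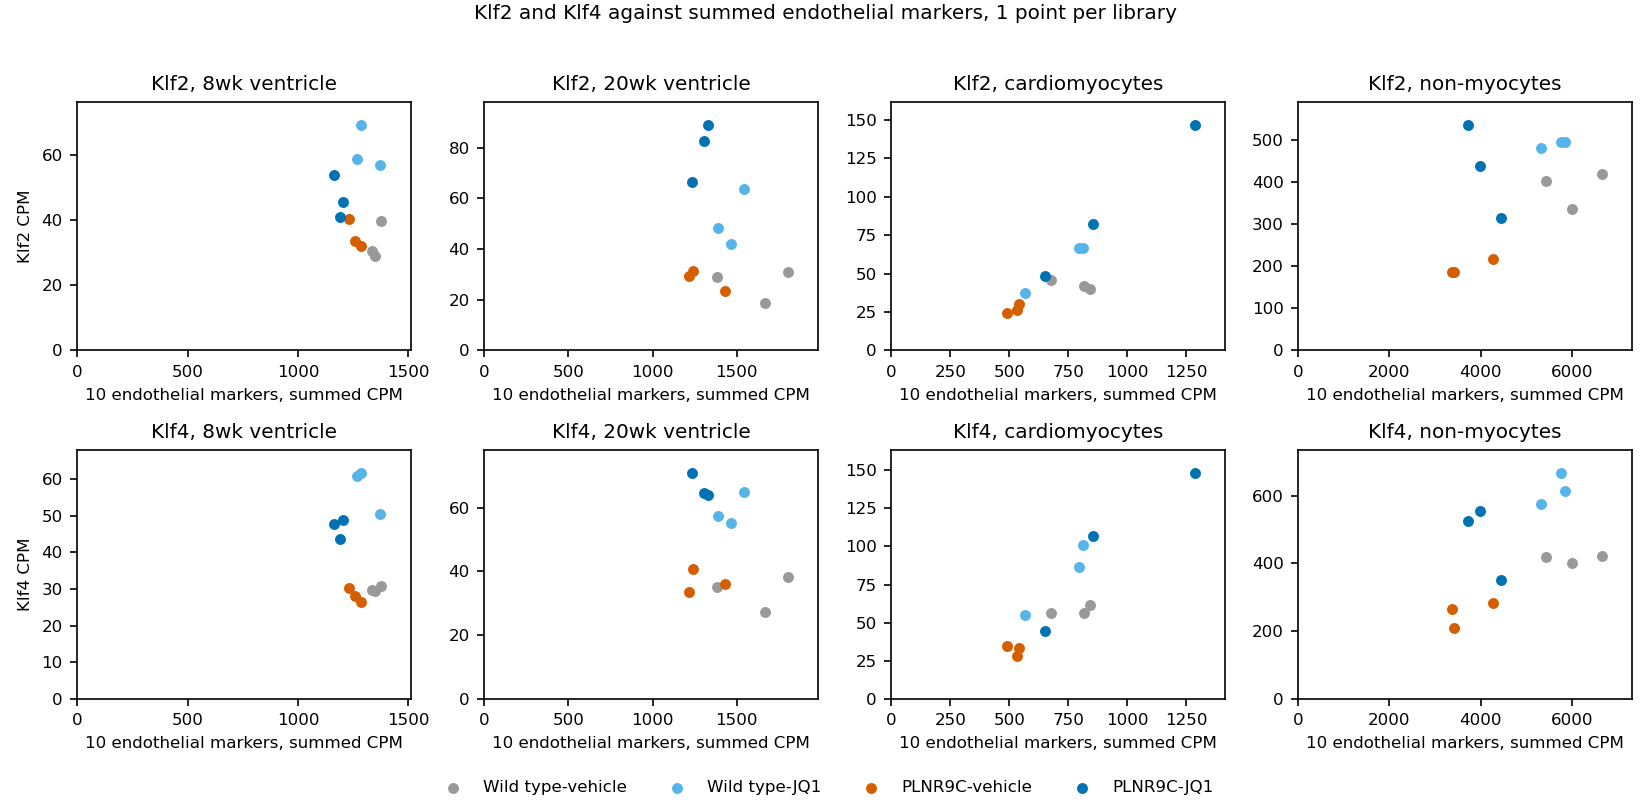
Klf2 (top) and Klf4 (bottom) in CPM against the summed CPM of 10 endothelial markers, 1 point per library, by sample type; both axes start at 0. In ventricle JQ1 libraries lie above vehicle libraries at a like marker sum, and in cardiomyocytes PLNR9C-JQ1 pool 2 stands apart with 1285 CPM of markers and 147 CPM of Klf2.

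In the cell fractions Klf2 and Klf4 rose with JQ1 in PLNR9C, and in wild type only Klf4 in non-myocytes passed. In PLNR9C non-myocytes Klf2 went from 186, 216 and 186 to 313, 535 and 438 CPM (log2 1.13 ± 0.16, edgeR adjusted p = 0.00013) and Klf4 from 208, 282 and 264 to 350, 526 and 554 CPM (0.92 ± 0.16, 0.00058). These vehicle pools are the ones that the genotype comparison used too. Wild type non-myocytes gave 0.35 ± 0.16 for Klf2 (edgeR adjusted p = 0.097), although all 3 JQ1 pools were higher (495, 493 and 480 against 401, 335 and 419 CPM), and 0.58 ± 0.16 for Klf4 (0.01). In these wild type pools 8 of the 9 cardiomyocyte markers rose with JQ1, their sum being 8178 to 10637 against 3415 to 5116 CPM; their part in the rises of Klf4 and Klf10 was not tested. In all, 4 of the 9 genes rose in PLNR9C and 2 in wild type non-myocytes, with 16.7% and 18% of all genes rising and 19.5% and 20% falling. The endothelial marker sum in PLNR9C non-myocytes was 4051 ± 365 CPM with JQ1 and 3686 ± 509 with vehicle, and Klf2 as a share of it was 7.05% to 14.4% with JQ1 and 5.05% to 5.53% with vehicle.

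In PLNR9C cardiomyocytes Klf2 held 48.2, 147 and 82.3 CPM with JQ1 against 26.4, 30.3 and 24.3 CPM with vehicle, all higher but widely spread (log2 1.77 ± 0.34, edgeR adjusted p = 0.011). Klf4 held 44.5, 148 and 107 CPM against 27.8, 33.1 and 34.7 CPM (1.65 ± 0.35, 0.016). Pool 2 of PLNR9C-JQ1 also had the most endothelial marker RNA of the 3, 1285 CPM against 652 and 855 CPM in pools 1 and 3 and 489 to 541 CPM in vehicle pools. Without pool 2, Klf2 was still called at 1.27, while Klf4 at 1.25 was not. The Klf4 call was also lost without PLNR9C-vehicle pool 1, at 1.58. As shares of the endothelial sum, Klf2 was at 7.40% to 11.4% with JQ1 and 4.96% to 5.61% with vehicle, and Klf4 at 6.82% to 12.5% and 5.23% to 7.09%, the latter overlapping. Wild type cardiomyocytes showed 0.42 ± 0.33 for Klf2 and 0.48 ± 0.34 for Klf4 (edgeR adjusted p = 0.54 and 0.48). Their Klf2 share of the endothelial sum was 6.55% to 8.33% with JQ1 and 4.74% to 6.80% with vehicle, overlapping. Their Klf4 share was 9.7% to 12.5% and 6.86% to 8.35%, without overlap. The 3 wild type JQ1 pools held 66.9, 66.3 and 37.2 CPM of Klf2, and the pool lowest in Klf2 was also lowest in the endothelial sum, at 568 CPM. Few genes were called there, with 1.7% of 14142 genes rising and 1.93% falling, against 6.14% and 4.33% in PLNR9C.

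Klf10 rose with JQ1 in 6 of the 8 comparisons. In wild type non-myocytes it held 83.8, 96.2 and 87.5 CPM with vehicle and 210.1, 161 and 142 CPM with JQ1 (log2 0.94 ± 0.15, edgeR adjusted p = 0.00029), and in PLNR9C non-myocytes 93.5, 89.4 and 88.9 against 134, 193 and 176 CPM (0.89 ± 0.15, 0.00047). The groups did not overlap in either. In cardiomyocytes it went from 11.52, 16.1 and 13.4 to 37.7, 27 and 31.3 CPM in wild type (1.23 ± 0.27, edgeR adjusted p = 0.031) and from 11.46, 14.2 and 9.48 to 19.2, 43.5 and 24.7 CPM in PLNR9C (1.31 ± 0.27, 0.013). The wild type value was the only call among the 9 genes in that comparison and was lost in 5 of the 6 fits without 1 pool, at 1.1 to 1.36. In ventricle Klf10 rose in PLNR9C at 20 weeks, from 25.3, 28.1 and 24.7 to 36.4, 38.8 and 37.5 CPM (0.53 ± 0.10, edgeR adjusted p = 0.00085), while in wild type it measured 21.3, 19.1 and 23.0 with vehicle and 22.3, 24.2 and 18.1 CPM with JQ1 (0.03 ± 0.11, 0.88). The difference between those 2 effects was 0.50 ± 0.15 and did not pass (edgeR adjusted p = 0.18). At 8 weeks the PLNR9C rise of 0.67 ± 0.21 passed (0.029) but not without the filter on low counts or without any of 4 single libraries, and the wild type difference of 0.57 ± 0.21 did not (0.063), though DESeq2 called it (0.57, 0.0072), as did edgeR without vehicle library 2 (0.70). Klf6 rose with JQ1 in PLNR9C non-myocytes, from 274, 239 and 326 to 357, 397 and 399 CPM (0.46 ± 0.12, edgeR adjusted p = 0.0085), and was not called by edgeR in the other 7 comparisons of drug with vehicle. In wild type non-myocytes all 3 JQ1 pools were higher (0.30 ± 0.12, edgeR adjusted p = 0.058), and Klf6 was called there by DESeq2 (0.31) or without vehicle pool 1 (0.39). In the 20-week wild type ventricle it was called without vehicle library 3 (0.31). In PLNR9C cardiomyocytes vehicle pool 3 held 101 CPM of Klf6 against 42.5 and 39.0 CPM in the other pools, and without it Klf6 was called there, at 1.22.

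Klf9 and Klf15, lower in the mutant, were not called with JQ1 in any of the 8 comparisons of drug with vehicle. In the 20-week PLNR9C ventricle Klf15 held 44.9, 37.1 and 37.4 CPM with JQ1 against 38.6, 45.0 and 25.1 CPM with vehicle, overlapping (log2 0.13 ± 0.21, edgeR adjusted p = 0.68), and 66.1 to 101 CPM in Wild type-vehicle. Klf9 held 106, 107 and 111 CPM with JQ1 against 124, 140 and 99.7 CPM with vehicle (-0.17 ± 0.11, 0.25), and was called at -0.29 without vehicle library 3. PLNR9C cardiomyocytes gave 0.22 ± 0.26 for Klf15 and 0.01 ± 0.22 for Klf9 (edgeR adjusted p = 0.64 and 0.98). In PLNR9C non-myocytes Klf15 was at 8.77, 13.0 and 15.9 CPM with JQ1 against 8.28, 23.4 and 37.4 CPM with vehicle, and its difference of -0.88 ± 0.48 did not pass (edgeR adjusted p = 0.18) unless vehicle pool 1 was left out (-1.29, 0.012). Cardiomyocyte marker sums in these non-myocyte pools were 1837 to 4775 CPM with JQ1 and 2112 to 2762 CPM with vehicle.

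Genes reported as Klf15 targets in heart and liver moved with genotype and, in part, with JQ1. Of 12 tested, 11 fell and 1 rose in the 20-week PLNR9C ventricle, with a median log2 difference of -1.19 beside 0.01 for all genes. Of all genes 21.4% fell and 23.3% rose there. Acsl1, the enzyme that joins long-chain fatty acids to coenzyme A, fell by 1.75 (SE 0.08, edgeR adjusted p = 1.6e-11), Lpl, the lipase that frees them, by 1.38 (2.6e-09), and Dbt, of the branched-chain ketoacid dehydrogenase, by 1.24 (8.9e-09). In cardiomyocytes 8 of the 12 fell and 1 rose (median -0.88), beside 11.8% and 14.3% of all genes. With JQ1 in the 20-week PLNR9C ventricle 8 of the 12 rose and 1 fell (median 0.52 beside 0.00), against 15.9% and 16.1% of all genes. Among those that rose were Acsl1 at 0.64 ± 0.07 and Slc2a4, the insulin-responsive glucose transporter, at 0.52 ± 0.09, while Klf15 itself was not called. The fractions did not show this. In PLNR9C cardiomyocytes 2 rose and 2 fell (median 0.07), beside 6.14% and 4.33% of all genes. In PLNR9C non-myocytes 0 rose and 4 fell, beside 16.7% and 19.5%. At 8 weeks 7 of the 12 had fallen with genotype, beside 6.5% of all genes, where Klf15 was not called either. In the 20-week JQ1 comparison 8 of the 9 cardiomyocyte markers rose as well, and 8 of 9 had fallen with genotype; 11 of the 12 genes in the list are also higher in cardiomyocytes than in non-myocytes. Of 10 glucocorticoid-responsive genes, which share an inducer with Klf9 and Klf15, 2 rose and 2 fell with genotype at 20 weeks, near the 23.3% and 21.4% of all genes. In cardiomyocytes 0 of 10 were called with genotype in edgeR's test, beside 14.3% of all genes rising and 11.8% falling.

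Reported endothelial targets of Klf2 and Klf4 moved in both directions with JQ1. The list does not separate targets that these factors raise from those they lower. Its counts and medians therefore do not show whether the targets moved together. Nos3, the endothelial nitric oxide synthase, rose in 7 of the 8 comparisons of drug with vehicle, by 0.63 ± 0.10 in the 20-week PLNR9C ventricle (edgeR adjusted p = 0.00014) and 0.62 ± 0.10 in wild type (0.00019), for example. Edn1, encoding endothelin, fell there in PLNR9C by 0.91 (SE 0.20, 0.002). Over the list, 1 of 9 tested genes rose and 3 fell in each of those 2 comparisons (medians 0.05 and -0.14). Of all genes 15.9% rose and 16.1% fell in PLNR9C there, and 12.3% and 14.9% in wild type. In PLNR9C non-myocytes 3 of the 9 rose with JQ1, Nos3, S1pr1 and Thbd, beside 16.7% of all genes. In that fraction the same 3 genes had fallen with genotype, beside 8.32% of all genes, a comparison that shares the vehicle pools. Other family members were mixed. Of 8 Kruppel-like genes tested in the 8-week ventricle, 3 rose and 2 fell with JQ1 in PLNR9C, beside 15.5% and 17.7% of all genes. Among them Klf3 rose by 0.48 ± 0.08 and Klf11 by 0.59 ± 0.13, and Klf7 changed by -0.68 ± 0.14. Klf3 also rose by 1.08 ± 0.14 in PLNR9C non-myocytes.

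JQ1 raised Egr1 in PLNR9C at 20 weeks and in PLNR9C cardiomyocytes. At 20 weeks its libraries held 16.0, 22.9 and 17.4 CPM with vehicle and 88.6, 45.9 and 36.2 CPM with JQ1, with no overlap and library 1 far above the other two (log2 1.61 ± 0.35, edgeR adjusted p = 0.0084). The call held without library 1, and over all alternatives the value was 1.14 to 1.85. In PLNR9C cardiomyocytes Egr1 went from 247, 204 and 225 to 388, 555 and 433 CPM (1.03 ± 0.22, edgeR adjusted p = 0.015), a call lost without JQ1 pool 2 (0.87) or vehicle pool 2 (0.98). Pool 2 of PLNR9C-JQ1, highest in Egr1 and in Klf10, also held the most fibroblast markers (4134 CPM, against 1250 and 2295 in pools 1 and 3 and 1083 to 1669 with vehicle) and macrophage markers (814 CPM, against 251 and 407, and 244 to 319 with vehicle), and the lowest cardiomyocyte sum, 47000 CPM. Their part in the rises of Egr1, Klf10, Klf2 and Klf4 in this fraction was not tested. Wild type cardiomyocytes held 244, 301 and 362 CPM with vehicle and 288, 304 and 165 CPM with JQ1 (-0.26 ± 0.22, edgeR adjusted p = 0.56). The 2 effects differed by 1.29 ± 0.31 with an unadjusted p of 0.0012, which did not pass over all genes (edgeR adjusted p = 0.73).

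At 8 weeks Egr1 was higher in every JQ1 library of both genotypes, yet the differences did not pass, and 1 library in each JQ1 group was far higher than the others. PLNR9C-JQ1 held 22.1, 77.2 and 26.1 CPM against 15.8, 19.3 and 14.3 CPM with vehicle (log2 1.36 ± 0.55, edgeR adjusted p = 0.096), and wild type 26.4, 60.6 and 23.2 against 15.2, 18.3 and 13.8 CPM (1.22 ± 0.56, 0.14). In a fit without both JQ1 libraries numbered 2, chosen after seeing these values, the differences were smaller and passed, at 0.55 (adjusted p = 0.0086) and 0.64 (0.0032). DESeq2 called Egr1 in PLNR9C with all libraries, at 1.35 (0.035). Egr2 and Egr3 showed the same PLNR9C-JQ1 library 2 as highest, at 2.94 against 0.865 and 1.27 CPM for Egr2 and 6.78 against 2.46 and 2.59 CPM for Egr3, and no JQ1 comparison with all libraries called either gene in any sample type. Leaving out 1 library called Egr2 in PLNR9C cardiomyocytes (1.24 without JQ1 pool 1) and in the 20-week wild type ventricle (1.64 without JQ1 library 1, 1.99 without vehicle library 3), and Egr3 in the latter with the opposite sign (-0.78 without vehicle library 1). In PLNR9C non-myocytes Egr1 missed the threshold at 0.53 ± 0.21 (edgeR adjusted p = 0.058) and passed in DESeq2 (0.54) or without JQ1 pool 1 (0.71) or vehicle pool 1 (0.66).

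Other immediate early genes gave the same mixed picture. Of 22, 7 rose and 3 fell with JQ1 in the 8-week PLNR9C ventricle and 8 rose and 3 fell at 20 weeks (medians 0.27 and 0.52). Of all genes 15.5% rose and 17.7% fell at 8 weeks, and 15.9% and 16.1% at 20 weeks. With genotype at 20 weeks 12 of the 22 rose and 0 fell (median 0.55), beside 23.3% and 21.4% of all genes. Jund, a member of the AP-1 complex, rose in all 8 comparisons of drug with vehicle, by 0.78 to 1.16, and Ier2 rose by 1.21 ± 0.13 in the 20-week PLNR9C ventricle. With genotype at 20 weeks Socs3 rose by 1.70 ± 0.18 and Myc by 1.51 ± 0.20 beside Egr2 and Egr3. In non-myocytes 0 of the 22 rose with genotype and 5 fell, beside the fall of Egr1, with a median of -0.32. Of all genes 10.3% rose and 8.32% fell there. Of the factors upstream of the Egr genes, Srf was called in 1 of the 12 comparisons within a sample type, a rise of 0.31 ± 0.10 in wild type ventricle with JQ1 at 20 weeks, and Elk3, one of its partner factors, fell with JQ1 in 7 of the 8, by 1.80 in wild type non-myocytes, for example. Nab2, an Egr corepressor and itself an Egr target, rose with genotype in ventricle by 0.36 ± 0.11 at 8 weeks and 0.37 ± 0.13 at 20 weeks. Of 11 genes of ERK feedback, the signal upstream of these factors, 5 rose and 0 fell with genotype at 20 weeks, led by Etv5 at 1.62 ± 0.12. With JQ1 at 20 weeks 0 rose and 6 fell in wild type, beside 12.3% and 14.9% of all genes. In PLNR9C 1 rose and 5 fell, beside 15.9% and 16.1%. In non-myocytes with JQ1 4 rose and 3 fell in PLNR9C, beside 16.7% and 19.5%, and 2 rose and 2 fell in wild type, beside 18% and 20%. In wild type cardiomyocytes edgeR called 0 of the 9 tested with JQ1, where 1.7% of all genes rose and 1.93% fell. With genotype in non-myocytes 1 of the 11 rose and 4 fell, beside 10.3% and 8.32%.

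No member's response to JQ1 was shown to differ between genotypes. The interaction was called for 0 of the 9 genes in each sample type by edgeR and by DESeq2. Over all genes edgeR called it for 0.00645%, 0.357%, 0% and 0% of those tested in the 8-week ventricle, 20-week ventricle, cardiomyocytes and non-myocytes. At an unadjusted p under 0.05 there were 1, 2, 3 and 1 of the 9, beside 871 of 15501, 1641 of 15971, 954 of 14142 and 1391 of 15347 genes. In non-myocytes the Klf2 interaction was 0.78 ± 0.22 (unadjusted p = 0.0034, edgeR adjusted p = 0.31), and it was called at 0.98 without PLNR9C-JQ1 pool 1. JQ1 effects in PLNR9C were not shown to differ between the fractions either, with 0 of the 9 called by edgeR or DESeq2, beside 2.43% of all genes. At an unadjusted p under 0.05 there were 3 of the 9, beside 3227 of 15823 genes. Without PLNR9C-JQ1 cardiomyocyte pool 1, which had the lowest Klf2, Klf4 and Egr2 of its group, 3 were called, Klf2 at 1.05, Klf4 at 1.18 and Egr2 at 1.36.

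Across the 48 libraries, with the mean of each sample type removed from log2 CPM, Klf2 and Klf4 varied together most closely (Pearson r = 0.925), then Klf9 and Klf15 (0.894), while Klf2 with Klf9 gave 0.04. Among 9095 genes compared, Klf4 was the gene most like Klf2, with Dusp1 (0.881) next, and Klf2 the gene most like Klf4, with Gata2 (0.917) next. Egr1 was most like Ier2 (0.868) and Fos (0.822), Egr2 like Mfsd1 (0.835) and Junb (0.824), and Egr3 like Ptger4 (0.66) and Egr2 (0.659). Tns1 (0.904) and Klf15 led for Klf9, and Klf9 and Epb4.1 (0.87) for Klf15. Klf10 was most like Arl6ip1 (0.831) and Klf6 most like Kctd10 (0.852). These are descriptions over libraries that share groups, treatment and depth.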

How the data were processed

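RNA-seq of 48 libraries was analysed. The authors deposited read counts per gene and RPKM per gene for each library, per the file headers; their processing notes name STAR 2.4.1b and GRCm38/mm10, and not given in the sources used here are the counting tool, annotation and use of strand. For genes with at least 50 reads in every library, deposited RPKM equalled reads times a gene factor and a library factor, within 0.06%. Whether these factors are gene length and library total was not checked.

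Counts were fitted per sample type with edgeR 4.0.16 (quasi-likelihood, robust, TMM, filterByExpr by group, R 4.3.3, limma 3.58.1), with 20 comparisons, Benjamini-Hochberg adjustment over all genes tested and a threshold of 0.05. CPM used TMM-scaled library sizes, computed separately in each of the 4 sample types, and log2 CPM a prior count of 2. Differences between sample types were fitted jointly over 24 libraries. On simulated data, of 100 genes changed by 1 on the log2 scale with JQ1 in PLNR9C, 90% were recovered in the 8-week ventricle, 93% in the 20-week ventricle, 60% in cardiomyocytes and 82% in non-myocytes. Alternatives were DESeq2 1.42.0, RLE size factors, no filter (at least 1 read), a replicate block, each library left out, and, added after seeing the data, both 8-week JQ1 libraries numbered 2 left out.

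The genes and gene lists were chosen with earlier results of these data known. The text names the 9 genes, up to 3 called genes per list and comparison with the smallest p, Hexim1, Srf and Nab2, and the 3 genes most alike in pattern among those with a mean of at least 10 CPM. Promoter windows come from RefSeq on GRCm38.p6.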

Additional observations from a re-analysis of the deposited data

How the results depend on the processing

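Of 180 values (9 genes in 20 comparisons), 43 were called; none of these changed sign under any alternative run, 33 kept their call under all of them, and 41 did when leaving out single libraries is not counted, the exceptions being Klf2 and Klf10 with JQ1 in the 8-week PLNR9C ventricle. There the number of members called went from 3 to 1 without the filter on low counts. DESeq2 called 1 member in place of 0 for the genotype effect at 20 weeks minus 8 weeks (Klf15, -0.87). It also called 1 more member in each of 6 comparisons, Egr1 (8 weeks, from 3 to 4) and Egr1 (non-myocytes, from 4 to 5) with JQ1 in PLNR9C, Klf10 (8 weeks) and Klf6 (non-myocytes) with JQ1 in wild type, both from 2 to 3, and Klf4 with genotype in cardiomyocytes, from 2 to 3, and Klf9 with genotype in non-myocytes, from 3 to 4. Within a sample type the mean correlation of same-numbered deviations was 0.00286, 0.0153, 0.0138 and 0.031 in the 4 sample types, each over 18 pairs. For different numbers it was -0.00143, -0.00769, -0.00834 and -0.0155, each over 36 pairs. Whether cardiomyocyte and non-myocyte pools of the same number came from the same hearts was not tested. The joint fit treated them as separate. A fit with the replicate number as a block called 5 members in place of 3 for genotype in non-myocytes, 4 in place of 3 with JQ1 in the 8-week PLNR9C ventricle and 3 in place of 2 in the wild type ventricle of that age. Leaving out 1 library gave 0 to 1 members called for genotype at 8 weeks, 1 to 3 for JQ1 in the 8-week PLNR9C ventricle, 2 to 4 for JQ1 in the 20-week wild type ventricle, 1 to 2 for genotype in cardiomyocytes, 2 to 5 and 0 to 1 for JQ1 in PLNR9C and wild type cardiomyocytes, and 2 to 5 for genotype in non-myocytes. It gave 0 to 1 for the interaction in non-myocytes and 0 to 3 for each of JQ1 in cardiomyocytes minus non-myocytes and genotype at 20 weeks minus 8 weeks. Of the 137 values not called, 46 changed sign under an alternative and 0 of these passed with the changed sign. The cause of these differences was not tested, beyond the smaller number of libraries in each fit. Over all genes, DESeq2 called 216 in place of 57 for the interaction at 20 weeks and 872 in place of 513 for JQ1 in wild type cardiomyocytes, 651 in place of 384 for JQ1 in cardiomyocytes minus non-myocytes, 66 and 6 in place of 0 for the interactions in non-myocytes and cardiomyocytes, and 11 in place of 1 for that at 8 weeks. Egr2 rests on 2 to 15 reads in wild type vehicle ventricle libraries.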
